A study of Rattus norvegicus with 120 samples.

Results

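The chronic stage of adult-onset epilepsy was examined as hippocampal miRNA levels of 10 rats with status epilepticus (SE) and 10 control rats, 20 of the 120 labelled libraries of the series. The members were all small RNA libraries of this stage with onset at postnatal day 60, and all mature miRNAs with more than 500 raw reads summed over the 39 libraries of the chronic table, 442 of the 653 listed. All animals were male Wistar rats, and all of them, controls included, first received LiCl. SE rats then received pilocarpine, a muscarinic agonist that sets off prolonged seizures, and controls received saline in its place. Paraldehyde was given after the onset of SE to lower mortality. Tissue was taken 3 months later, and both whole hippocampi of a rat gave 1 library. In the account of the model, the SE rats of this age had motor seizures on video and the controls had none. In a whole hippocampus, fewer cells of a type and less RNA per cell cannot be told apart.

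A miRNA is a short RNA that guides an Argonaute protein to messenger RNAs, most of all through its seed, bases 2 to 8 from the 5′ end, and lowers their translation and stability. It is cut from a hairpin whose 2 arms, 5p and 3p, can both yield a mature strand. In epilepsy research, miR-146a and miR-155 are known as miRNAs of innate immune signalling in glia and myeloid cells, miR-132 and miR-212 as a pair transcribed upon neuronal activity, and miR-7, miR-124, miR-128, miR-138 and miR-218 as miRNAs of neurons.

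The mature sequences of the 6 miRNAs that passed the test, and of their closest relatives, are shown first because several results turn on which member of a seed family moved. They come from RefSeq (GRCr8), which held a sequence for 405 of the 442 tested miRNAs, and the capitals mark the seed.
miR-146a-5p: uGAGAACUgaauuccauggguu
miR-146b-5p: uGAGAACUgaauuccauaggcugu
miR-155-5p: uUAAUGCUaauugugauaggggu
miR-135a-5p: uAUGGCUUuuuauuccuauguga
miR-135b-5p: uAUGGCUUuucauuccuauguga
miR-187-3p: uCGUGUCUuguguugcagccgg
miR-211-5p: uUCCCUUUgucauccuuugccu
miR-204-5p: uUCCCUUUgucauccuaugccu
miR-7b: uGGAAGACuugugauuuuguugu
miR-7a-5p: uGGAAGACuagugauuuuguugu
Within these pairs the seed is the same, and the strands differ outside it. miR-211-5p and miR-204-5p differ by U17A, miR-7b and miR-7a-5p by U10A, and miR-135a-5p and miR-135b-5p by U11C, with the base of the first-named strand given first and positions counted from the 5′ end. miR-146a-5p and miR-146b-5p share their first 17 bases. The authors assigned reads with up to 1 mismatch, so the split of reads within the 3 pairs that differ by 1 base is less certain than their sum.

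On GRCr8, miR-146a-5p lies at chr10:28350053-28350074 (minus strand) within a long non-coding RNA gene, miR-135a-5p at chr7:28499221-28499243 (minus strand) within another, and miR-7b at chr9:1167464-1167486 (plus strand) within the span of a pseudogene. miR-187-3p lies at chr18:16005964-16005985 (minus strand) and miR-155-5p at chr11:37261117-37261139 (plus strand), both outside the span of any other annotated gene. miR-211-5p lies at chr1:127189353-127189374 (plus strand) within the span of Trpm1, and its near-identical relative miR-204-5p lies within Trpm3.

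Libraries held from 870112 to 27765190 reads assigned to miRNAs in SE rats (median 3654481.5) and from 967832 to 7826996 in controls (median 4038550.5). Levels are given as CPM, reads scaled to 1 common library total after TMM scaling, a factor per library that evens out differences in composition. The tissue had the miRNAs of brain in high amounts. miR-9a-5p took the largest share of reads in all 20 libraries, with 277610 ± 30108.5 CPM in SE rats and 299640 ± 56921.6 CPM in controls (SD, n = 10 each), and the neuronal miR-124-3p had 21583.5 ± 4758.84 and 23013.5 ± 11921.3 CPM. The 10 most abundant miRNAs together held 57.35% of the CPM. Rank correlations between libraries lay between 0.9183 and 0.9911, and no 2 libraries had identical counts. Control libraries stood apart more often than SE libraries. The SD of log2 CPM was larger in controls for 337 of the 442 miRNAs (median 0.41 in SE rats and 0.52 in controls). Libraries 3-S7 and 3-S10, both controls, were the highest of the 20 for 83 and 84 miRNAs. Control 3-S13 was more than 3 times above every other library for miR-1298, miR-448-3p, miR-1912-3p and miR-204-5p, control 3-S12 for the 4 tested strands of the miR-183 cluster, control 3-S7 for miR-672-5p, let-7b-5p, let-7c-5p and let-7e-5p, and control 3-S10 for miR-133a-3p, miR-133b-3p, miR-10b-5p and miR-34a-5p. Of the SE libraries, 3-S5 did so for miR-653-5p.

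After adjustment for all 442 tests, 6 miRNAs differed between SE rats and controls, 1.36% of those tested. After SE 4 of them rose (0.905%), namely miR-146a-5p, miR-155-5p, miR-135a-5p and miR-211-5p. The other 2, miR-187-3p and miR-7b, fell (0.452%). The test was the quasi-likelihood F test of edgeR, and a call means a Benjamini-Hochberg adjusted p under 0.05. The p values measure the spread between rats. Before adjustment 72 miRNAs (16.3%) had a p under 0.05, 34 of them higher and 38 lower after SE. The thresholds of the study (a fold change of at least 1.4 and a p under 0.05, taken here as unadjusted) were passed by 44 miRNAs (9.95%), 20 higher and 24 lower. This split depended on the scaling and the model, at 32 higher and 14 lower with library totals only, 25 and 18 with DESeq2, 24 and 10 with limma-trend on the normalized reads, 23 and 14 in the fit of all 39 libraries, 18 and 13 with a mean of at least 10 CPM, 23 and 17 without controls 3-S12 and 3-S13 and 35 and 10 with limma voom with sample weights. Over all tested miRNAs the median log2 fold change was -0.09, with 180 higher and 262 lower, and it was 0.01 with library totals only.

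miR-146a-5p and miR-155-5p, both induced by NF-kB, belong to inflammatory signalling, where miR-146a restrains the Toll-like receptor adaptors IRAK1 and TRAF6 and miR-155 represses SOCS1. miR-146a-5p ran from 83.1 to 264 CPM in SE rats (median 172) and from 56.2 to 128 CPM in controls (median 73.4). All 10 SE rats lay above the control median and 8 of them above every control, and the lowest SE rats were 3-S5 and 3-S4. The means were 173 ± 53.6 CPM in SE rats and 82.1 ± 23.3 CPM in controls, a log2 fold change of 1.08 (standard error 0.20, adjusted p = 0.00598 by edgeR). miR-155-5p was a scarce miRNA, at 7.49 to 58.8 CPM in SE rats (median 18.4) and 1.57 to 11.3 CPM in controls (median 6.97). The next SE rat below 3-S3, the highest, was 3-S5, and 8 SE rats lay above every control. Its raw counts were as low as 8 reads in SE library 3-S2 and 2 reads in control 3-S10. The log2 fold change was 1.52 (standard error 0.34, adjusted p = 0.0166).

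The relative of miR-146a-5p with the same seed, miR-146b-5p, was the more abundant of the pair. It had 1965 ± 383 CPM in SE rats and 2559 ± 483 CPM in controls, a log2 difference of -0.38 (standard error 0.14, adjusted p = 0.129), and 9 of 10 SE rats lay below the control median. The counts of both strands summed under the seed GAGAACU came to 2180 ± 383 CPM in SE rats and 2599 ± 491 CPM in controls (-0.25, standard error 0.13, adjusted p = 0.319 over 334 seeds). The rise of miR-146a-5p was not seen in the total of its seed. miR-146b-5p passed with limma voom with sample weights and without control 3-S7.

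miR-135a-5p, a brain miRNA known in mice to repress the serotonin transporter, had 858 to 1627 CPM in SE rats (median 1281) and 668 to 978 CPM in controls (median 806). All 10 SE rats lay above the control median and 7 above every control. It averaged 1268 ± 280 CPM in SE rats and 813 ± 119 CPM in controls, a log2 fold change of 0.64 (standard error 0.14, adjusted p = 0.0151). The call ended without controls 3-S12 and 3-S13 (0.59, adjusted p = 0.0612) and in the fit of all 39 chronic libraries (0.69, adjusted p = 0.0532). The opposite strand of its hairpin, miR-135a-3p, had 70.8 ± 9.29 CPM in SE rats and 52.1 ± 11.4 CPM in controls (0.44, standard error 0.14, adjusted p = 0.10). Of the pair that shares the seed AUGGCUU, miR-135b-5p stood at 200 ± 73.0 CPM in SE rats and 188 ± 89.7 CPM in controls (0.09).

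miR-211-5p, known from melanocytes like its host gene Trpm1, had 10.5 to 41.4 CPM in SE rats (median 17.2) and 2.33 to 19.4 CPM in controls (median 5.999). All 10 SE rats exceeded the control median and 4 exceeded every control, the highest control being 3-S12. The log2 fold change was 1.53 (standard error 0.35, adjusted p = 0.0166), on raw counts as low as 25 reads in SE library 3-S1 and 4 reads in control 3-S10. The call ended without SE library 3-S17 (1.34, adjusted p = 0.0568) and in the fit of all 39 libraries (1.57, standard error 0.66, adjusted p = 0.243). That fit includes the infancy-onset SE rats, whose miR-211-5p levels varied widely (43.9 ± 117 CPM). miR-204-5p, the sister strand known from the choroid plexus, had 736 ± 211 CPM in SE rats and 1163 ± 1306 CPM in controls (-0.66), of which control 3-S13 alone had 4870 CPM. Without that library the difference was -0.03, and without 3-S12 as well 0.01. The sum of both under UCCCUUU was 774 ± 234 CPM in SE rats and 1125 ± 1182 CPM in controls (adjusted p = 0.435).

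miR-187-3p, induced by interleukin-10 in human monocytes, had 26.9 to 67.4 CPM in SE rats (median 50.01) and 49.3 to 196 CPM in controls (median 96.5). All 10 SE rats lay below the control median and 4 below every control. The means were 49.7 ± 11.3 CPM in SE rats and 104 ± 46.9 CPM in controls, a log2 fold change of -1.06 (standard error 0.23, adjusted p = 0.0151).

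miR-7b and miR-7a-5p, neuronal and neuroendocrine strands that the circular RNA Cdr1as binds, stood at lower levels after SE. miR-7b had 1058 to 3136 CPM in SE rats (median 1569) and 1880 to 5446 CPM in controls (median 3073). Of the SE rats, 8 lay below every control, and 3-S5 lay above the control median. The log2 fold change was -0.95 (standard error 0.23, adjusted p = 0.0295), and the call ended without any of 10 single libraries (SE 3-S1, 3-S2, 3-S3, 3-S4, 3-S14, 3-S15, 3-S17 and 3-S18, and controls 3-S8 and 3-S9) and without 3-S12 and 3-S13 together. miR-7a-5p, encoded by several genes, had 5081 to 16001 CPM in SE rats (median 6600) and 9173 to 28173 CPM in controls (median 11164), with 7 SE rats below every control. Its log2 difference was -0.80 (standard error 0.23, adjusted p = 0.0636). Summed under GGAAGAC the pair had 9430 ± 3896 CPM in SE rats and 16077 ± 6292 CPM in controls (-0.77, standard error 0.21, adjusted p = 0.0577).

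**Figure D1:**
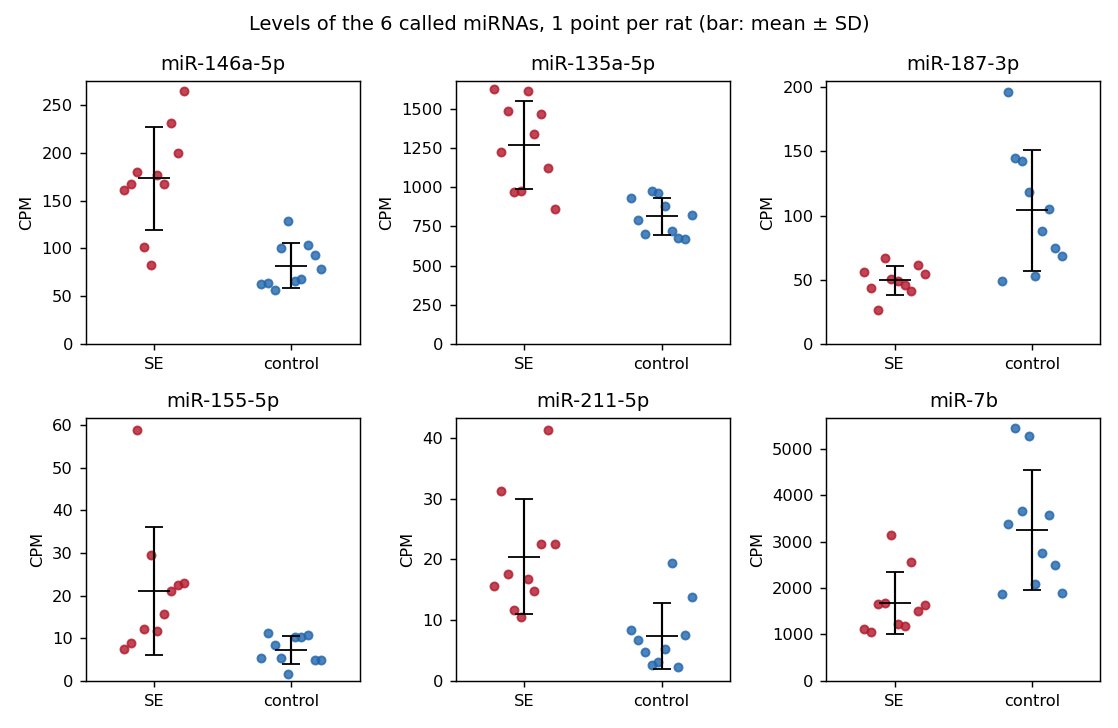
Level of each called miRNA in CPM (y axes from 0, 1 point per rat, 10 SE rats in red on the left and 10 controls in blue on the right, bars for mean ± SD). SE rats of miR-146a-5p and miR-155-5p lie mostly above the controls, 8 of 10 above every one, those of miR-7b lie mostly below, 8 of 10 below every control, and no miRNA separates all 20 rats.

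No miRNA of the 442 separated the groups completely. At least 7 of 10 SE rats lay beyond every control, in either direction, for 7 miRNAs (1.58%). Besides miR-146a-5p, miR-135a-5p, miR-155-5p, miR-7b and miR-7a-5p these were miR-16-5p and miR-339-5p. miR-16-5p, known for repressing cyclins and BCL2, had 2056 to 3128 CPM in SE rats (median 2672) and 1447 to 2315 CPM in controls (median 2085), with 8 SE rats above every control. Its log2 difference was 0.38 (standard error 0.11, adjusted p = 0.0627). miR-339-5p had 133 ± 34.6 CPM in SE rats and 99.6 ± 18.5 CPM in controls (0.42, standard error 0.16, adjusted p = 0.174).

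Of the seed families, 3 of 334 differed after adjustment (0.898%). They were UAAUGCU and CGUGUCU, which hold only miR-155-5p and miR-187-3p among the tested miRNAs with a sequence, and AUGGCUU (1498 ± 349 CPM in SE rats and 984 ± 183 CPM in controls, 0.61, standard error 0.15, adjusted p = 0.0405). Among the 405 tested miRNAs with a RefSeq sequence, a seed was shared by 2 or more in 44 cases, which held 115 miRNAs. The 37 tested miRNAs without a sequence entered no family, so family totals can be incomplete. The family AGCAGCA, made here of the following 5 strands with a sequence and shown because they were all higher after SE, missed the threshold.
miR-16-5p: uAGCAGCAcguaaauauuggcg
miR-15b-5p: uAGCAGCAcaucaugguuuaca
miR-195-5p: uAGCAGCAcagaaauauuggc
miR-497-5p: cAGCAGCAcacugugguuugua
miR-322-5p: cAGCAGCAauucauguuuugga
Its total was 3509 ± 414 CPM in SE rats and 2634 ± 460 CPM in controls (0.41, standard error 0.11, adjusted p = 0.0577). miR-16-5p made up most of that level. With 1 further strand, miR-15a-5p, which entered no family total, the list of miR-15, miR-16, miR-195 and miR-497 strands had 6 of 6 higher (median 0.34). Of these 0 were called by edgeR and 3 had an unadjusted p under 0.05 (1.36% and 16.3% over all 442). miR-195-5p had 552 ± 73.2 CPM in SE rats and 433 ± 85.4 CPM in controls (0.35, adjusted p = 0.161), and all 10 SE rats lay above the control median. The number of families called ranged from 0 to 17 when single libraries were left out, with 0 without SE 3-S3, SE 3-S16, control 3-S8 or control 3-S9, and 17 without control 3-S10.

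miR-146a-5p and miR-155-5p, which also stand in the list of reactive glial and NF-kB miRNAs, are the only called members of the myeloid and microglial list. That list was drawn up with earlier results of these data known. All 6 tested members were higher (median log2 fold change 0.63, against -0.09 over all 442), 2 of them called, miR-146a-5p and miR-155-5p (1.36% over all 442), and 4 with an unadjusted p under 0.05 (16.3% over all 442). miR-142-5p of leukocytes had 38.5 ± 12.8 CPM in SE rats and 24.4 ± 8.24 CPM in controls (0.64, standard error 0.21, adjusted p = 0.116), and its opposite strand miR-142-3p 104 ± 70.1 and 68.2 ± 42.0 CPM (0.61, adjusted p = 0.356). miR-150-5p of lymphocytes had 542 ± 89.2 CPM in SE rats and 410 ± 76.9 CPM in controls (0.40, standard error 0.13, adjusted p = 0.10), and every SE rat exceeded the control median. miR-223-3p of granulocytes and monocytes stood at 28.02 ± 8.74 and 20.9 ± 9.64 CPM (0.39, adjusted p = 0.379). Most of the summed level of the list was miR-150-5p, so the sum is not a measure of myeloid cells alone. It ran from 690 to 1066 CPM in SE rats (median 914). In controls it ran from 484 to 817 CPM (median 575), so that the groups overlapped. All 6 stayed higher without any single library and under every other setting, with medians from 0.54 to 0.72. Erythroid miRNAs (miR-451-5p, miR-144-3p, miR-144-5p and miR-486) summed to 306 to 834 CPM in SE rats and 172 to 1083 CPM in controls, with 1 of 4 higher and 3 lower.

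Reactive glial and NF-kB miRNAs did not share a direction. Of 9 tested, 4 were higher and 5 lower (median -0.09, ranging from -0.20 to 0.35 without single libraries). miR-146a-5p and miR-155-5p were called up and miR-187-3p was called down, beside 1.36% called over all 442. miR-21-5p, raised in many injured tissues, had 7923 ± 2882 CPM in SE rats and 6178 ± 1281 CPM in controls (0.36, standard error 0.18, adjusted p = 0.321). miR-203a-3p had 99.7 ± 19.5 CPM in SE rats and 64.0 ± 20.8 CPM in controls (0.63, standard error 0.18, adjusted p = 0.0598), and all 10 SE rats exceeded the control median. Oligodendrocyte miRNAs of the miR-219 and miR-338 hairpins gave 3 higher and 2 lower, none with an unadjusted p under 0.05, and their sum was 7603 to 10713 CPM in SE rats (median 9078) and 4547 to 14060 CPM in controls (median 8093). All 9 vessel wall miRNAs (miR-126a, miR-143, miR-145, miR-199a and miR-214) were higher (median 0.27, 0.10 to 0.44), again none with an unadjusted p under 0.05, and with other settings 7 to 9 of them were higher.

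Activity-regulated miRNAs were mostly higher. Of 10 tested (median 0.40), 9 were higher, most of them strands of the miR-132, miR-212 and miR-129 hairpins. The 1 lower was miR-134-5p (-0.49). By edgeR 1 was called, miR-135a-5p (1.36% over all 442), and 6 had an unadjusted p under 0.05 (16.3% over all 442). miR-212 and miR-132 are cut from neighbouring hairpins whose transcription CREB drives upon activity. Both strands of each are among these 6, so the 6 are not separate observations. miR-212-3p had 136 to 528 CPM in SE rats (median 198) and 113 to 215 CPM in controls (median 142), with 3-S3 far above the other SE rats and 9 of 10 above the control median. Its log2 difference was 0.73 (standard error 0.20, adjusted p = 0.0598), and it passed with DESeq2 (adjusted p = 0.0157) and in the fit of all 39 libraries (adjusted p = 0.00349). miR-212-5p had 380 ± 102 CPM in SE rats and 262 ± 77.8 CPM in controls (0.54, adjusted p = 0.126), miR-132-5p 589 ± 161 and 455 ± 84.0 CPM (0.37, adjusted p = 0.191) and miR-132-3p 2428 ± 570 and 1809 ± 632 CPM (0.42, adjusted p = 0.286). miR-129-2-3p had 1249 ± 568 CPM in SE rats and 761 ± 359 CPM in controls (0.71, standard error 0.27, adjusted p = 0.164). SE library 3-S3 was the highest of its group for miR-155-5p, miR-212-3p, miR-132-5p and miR-142-3p alike, each time far from the next rat.

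Neuron-enriched miRNAs were all lower. Of 14 tested, 0 were higher and 14 lower (median -0.23, -0.95 to -0.03), against 262 of 442 lower and a median of -0.09 over all tested. By edgeR miR-7b was called (1.36% over all 442) and 3 more had an unadjusted p under 0.05 (16.3% over all 442). With library totals only the median was -0.14, and in the other settings between 0 and 3 of the 14 were higher. miR-218a-5p had 9841 to 22574 CPM in SE rats (median 15016) and 8210 to 33041 CPM in controls (median 25121). All 10 SE rats lay below the control median and none below every control, since control 3-S10 was lowest (-0.63, standard error 0.19, adjusted p = 0.0896). miR-138-5p, known in rat neurons to limit spine size, had 2330 ± 457 CPM in SE rats and 3377 ± 1372 CPM in controls (-0.54, standard error 0.18, adjusted p = 0.126), and 5 SE rats lay below every control. The sum of the list was 312628 to 444591 CPM in SE rats (median 394519) and 308422 to 579963 CPM in controls (median 445191), most of it miR-9a-5p.

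**Figure D2:**
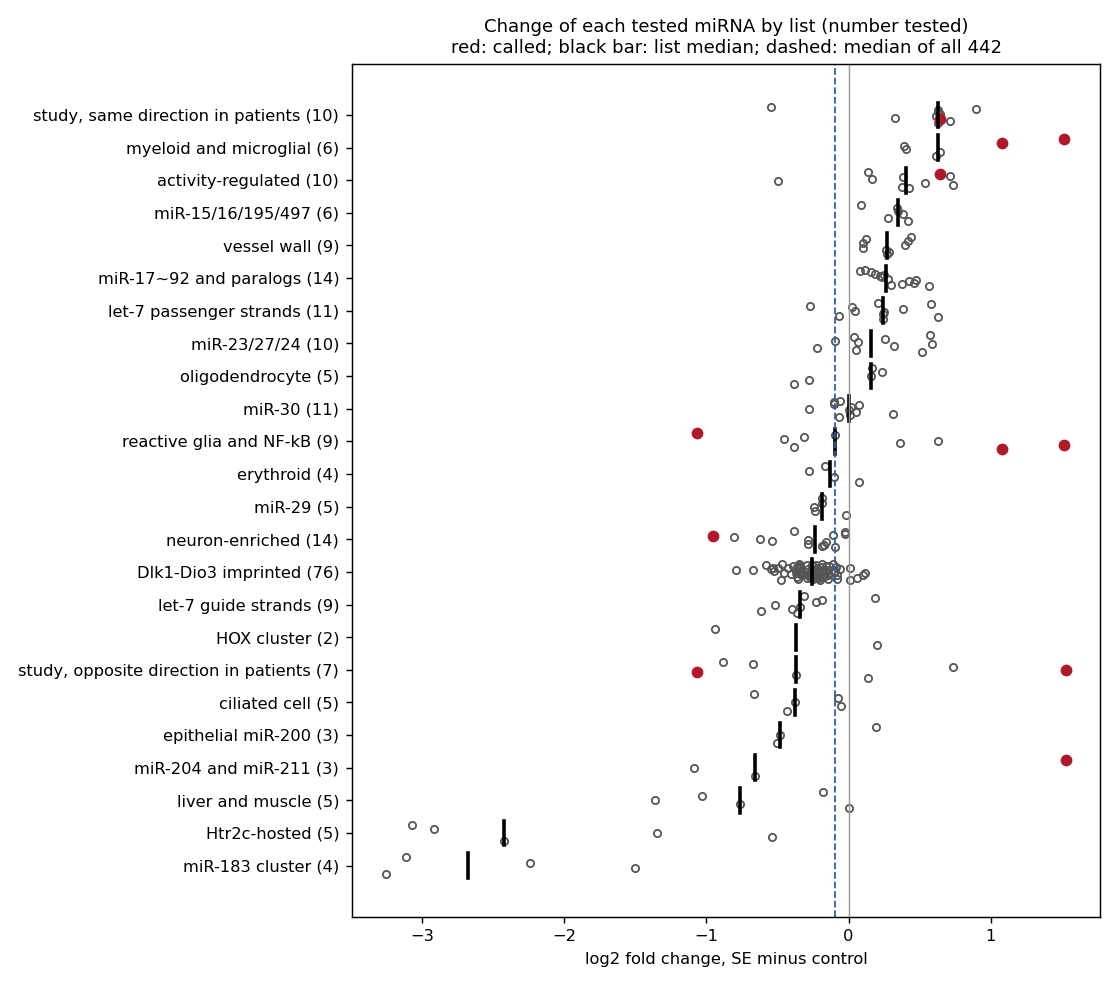
Log2 fold change, SE minus control, of every tested miRNA of 24 lists (1 point per miRNA, called ones filled in red, black bars for list medians, dashed line for the median of all 442 at -0.09). The myeloid list lies wholly above 0 with a median of 0.63, all 14 neuron-enriched miRNAs lie below 0, and most of the 76 Dlk1-Dio3 miRNAs lie just below 0.

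The miRNAs of the imprinted Dlk1-Dio3 region, a maternally expressed cluster active in neurons, formed the largest list. Of 84 listed, 76 were tested, and the 74 with a RefSeq locus all lay on chromosome 6 between 134298094 and 134579828. Of these 76, 71 were lower and 5 higher (miR-329-3p, miR-370-5p, miR-665, miR-673-3p and miR-134-3p), with a median of -0.26. Over all tested, 262 of 442 were lower and the median was -0.09. Strands of 1 cluster are not separate observations. None was called by edgeR (0 of 76, beside 1.36% over all 442), and 11 had an unadjusted p under 0.05, all lower, a share near the 16.3% over all 442. Limma voom with sample weights called 2 of its members, miR-409a-3p and miR-369-3p. miR-382-5p had 1022 ± 145 CPM in SE rats and 1375 ± 414 CPM in controls (-0.43, standard error 0.15, adjusted p = 0.126), and 6 SE rats lay below every control. miR-369-3p had 3310 ± 510 and 4220 ± 755 CPM (-0.35, standard error 0.13, adjusted p = 0.141), with all 10 SE rats below the control median. miR-381-5p had 5.20 ± 1.25 CPM in SE rats and 9.19 ± 5.57 CPM in controls (-0.79, standard error 0.28, adjusted p = 0.126). Summed, the cluster had 34394 to 44549 CPM in SE rats (median 37294) and 41698 to 54236 CPM in controls (median 44356), and 8 of the SE rats lay below every control. Its median stayed below 0 in every setting, from -0.27 to -0.16, and was nearest to 0 with library totals only, where 12 of 76 were higher.

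Among larger miRNA families, all 14 tested strands of the miR-17~92 cluster and its paralogs were higher (median 0.26). Without SE 3-S5 or control 3-S10, 13 of 14 were higher. By edgeR 0 were called and 4 had an unadjusted p under 0.05 (1.36% and 16.3% over all 442). Limma voom with sample weights called miR-17-5p and miR-20a-5p. miR-17-5p had 131 ± 45.7 CPM in SE rats and 88.8 ± 26.2 CPM in controls (0.56, standard error 0.20, adjusted p = 0.128), and miR-20a-5p 252 ± 53.6 and 181 ± 56.2 CPM (0.48, adjusted p = 0.129). Of the miR-23, miR-27 and miR-24 strands 8 of 10 were higher (median 0.16). miR-23a-3p had 2526 ± 329 CPM in SE rats and 1769 ± 548 CPM in controls (0.51, standard error 0.18, adjusted p = 0.126), where all SE rats exceeded the control median and 6 exceeded every control, and miR-24-2-5p 217 ± 73.8 and 146 ± 48.5 CPM (0.57, adjusted p = 0.141). The miR-30 strands were spread about 0, with 6 higher and 5 lower, and miR-30b-5p stood at 1545 ± 242 CPM in SE rats and 1242 ± 240 CPM in controls (0.31, adjusted p = 0.211). All 5 miR-29 strands were lower by small amounts (median -0.19, and 0.01 with limma voom with sample weights).

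The 2 strands of the let-7 hairpins leaned in opposite ways. Guide strands, the abundant arms that LIN28 keeps from being made in early development, were lower for 8 of 9 (median -0.34), and passenger strands were higher for 9 of 11 (median 0.24), none of them called. The guides summed to 90427 to 145396 CPM in SE rats (median 109584) and 88210 to 283157 CPM in controls (median 126153), the highest being control 3-S7, next to 159934 CPM in the second. Without single libraries the median of the guides moved between -0.44 and -0.03. let-7b-3p had 37.9 to 84.7 CPM in SE rats (median 48.1) and 23.2 to 53.3 CPM in controls (median 34.4), with all 10 SE rats above the control median (0.63, standard error 0.18, adjusted p = 0.0618).

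For 142 hairpins both arms were tested. Both arms had the same sign in 104 (73.24%), 36 times both higher and 68 times both lower. In 4 hairpins both arms had an unadjusted p under 0.05, and in all of them both were higher after SE, namely miR-135a, miR-212, miR-132 and miR-339. miR-339-3p had 20.3 ± 4.54 CPM in SE rats and 13.98 ± 4.65 CPM in controls (0.52, standard error 0.20, adjusted p = 0.161). The arms share a primary transcript and a library, so their agreement is a description. The ratio of the arms itself, tested with limma on log2 of 5p over 3p reads, differed for 0 of 142 hairpins after adjustment (0%), and for 8 before it. The lowest p was that of miR-329 in the Dlk1-Dio3 cluster, with a log2 ratio of 1.70 ± 0.31 in SE rats and 2.19 ± 0.24 in controls (difference -0.50, standard error 0.15, adjusted p = 0.528). miR-448 followed with a difference of 1.04 (standard error 0.39), let-7d with -0.59 (0.23), miR-1839 with -0.45 (0.19) and miR-98 with -0.48 (0.22), each with an adjusted p of 0.734.

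**Figure D3:**
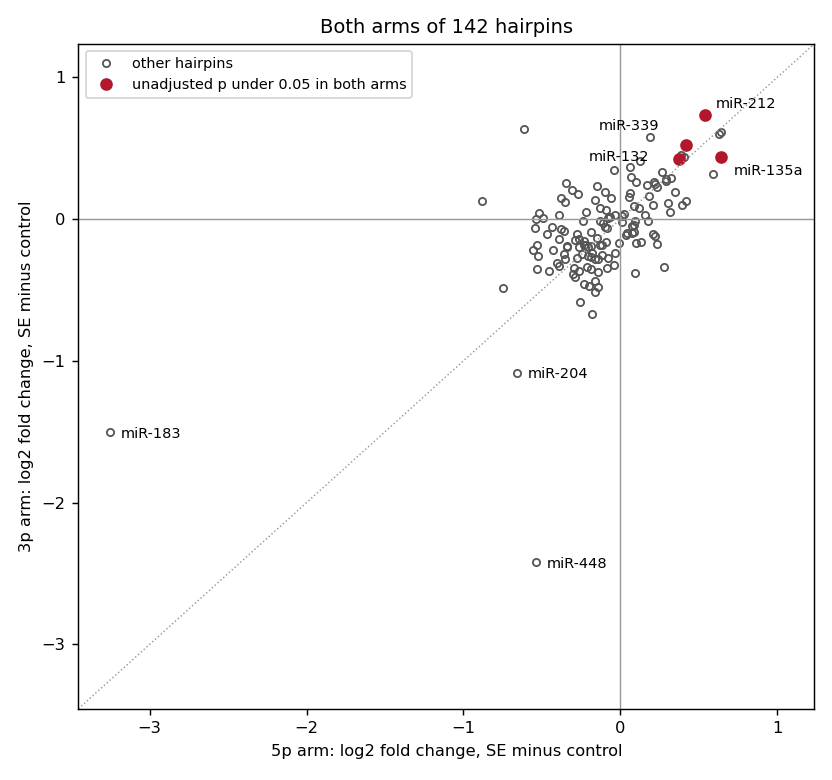
Log2 fold change, SE minus control, of the 5p arm (x axis) and the 3p arm (y axis) of 142 hairpins, with hairpins whose arms both have an unadjusted p under 0.05 in red and a dotted line of equal change. The 4 red hairpins lie in the upper right, and miR-183 lies far out at the lower left (-3.25 and -1.50).

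The largest fold changes belonged to miRNAs that single control libraries set. The 5 tested miRNAs hosted by Htr2c, the serotonin receptor 2C gene (chrX:115453190-115682325), were all lower (median -2.42). Of these 4 had an unadjusted p under 0.05 (16.3% over all 442) and 0 were called by edgeR. Htr2c is expressed above all in the epithelium of the choroid plexus, which borders the hippocampus. The list summed to 146 to 396 CPM in SE rats (median 263) and 198 to 15217 CPM in controls (median 339), and the second highest control had 607 CPM. miR-1298 alone had 116 to 287 CPM in SE rats (median 211) and 147 to 13310.5 CPM in controls (median 280), a log2 difference of -2.92 (standard error 0.77, adjusted p = 0.0584). Without control 3-S13 it was -0.47 (adjusted p = 0.348), that of miR-448-3p -0.53 in place of -2.42 and that of miR-1912-3p -0.76 in place of -3.07. miR-764-3p stood at -1.35 and changed sign to 0.07 with limma voom with sample weights. Without any of 7 other controls (3-S6, 3-S7, 3-S10, 3-S11, 3-S12, 3-S19 and 3-S20), and so with 3-S13 kept, miR-1298 and miR-448-3p passed the test of edgeR, for example with adjusted p = 0.0404 and 0.0468 without 3-S12. The same library was the highest control for the list of miR-204 and miR-211 strands (4887 CPM, next 944) and for the list of ciliated cells, which line the ventricle (1738 CPM, next 650), whose 5 tested members were lower with it and of which up to 4 were higher without a single library. The part of choroid plexus or ventricle lining in the values of 3-S13 was not tested.

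Likewise, the cluster of miR-183, miR-96 and miR-182, known from sensory organs, was lower in all 4 tested strands (median -2.67). Of these 3 had an unadjusted p under 0.05 by edgeR (16.3% over all 442). The cluster summed to 41 to 229 CPM in SE rats (median 82) and 26 to 5255 CPM in controls (median 141). The second control had 374 CPM. miR-183-5p had 13.7 to 85.5 CPM in SE rats (median 22.2) and 3.55 to 2776 CPM in controls (median 52.0). Its log2 difference was -3.25 (standard error 0.90, adjusted p = 0.0598), and -0.63 without control 3-S12 (adjusted p = 0.475). miR-96-5p stood at -3.11 and without 3-S12 at -1.34, and miR-182 at -2.24 and -0.58. Liver and muscle miRNAs, among them miR-133a-3p, miR-133b-3p and miR-206-3p, were lower in all 5 tested (median -0.76), but without control 3-S10 3 of 5 were higher (median 0.02), as with DESeq2 (median 0.02). They summed to 169 to 260 CPM in SE rats (median 206) and 190 to 684 CPM in controls (median 231). The highest control was 3-S10, the next had 289 CPM, and miR-206-3p had 5.53 ± 3.32 CPM in SE rats and 11.9 ± 11.6 CPM in controls (-1.03, adjusted p = 0.215). Of the epithelial miR-200 family 2 of 3 and of the HOX cluster miRNAs 1 of 2 were lower, at summed levels of no more than 37.9 and 173 CPM in any library.

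**Figure D4:**
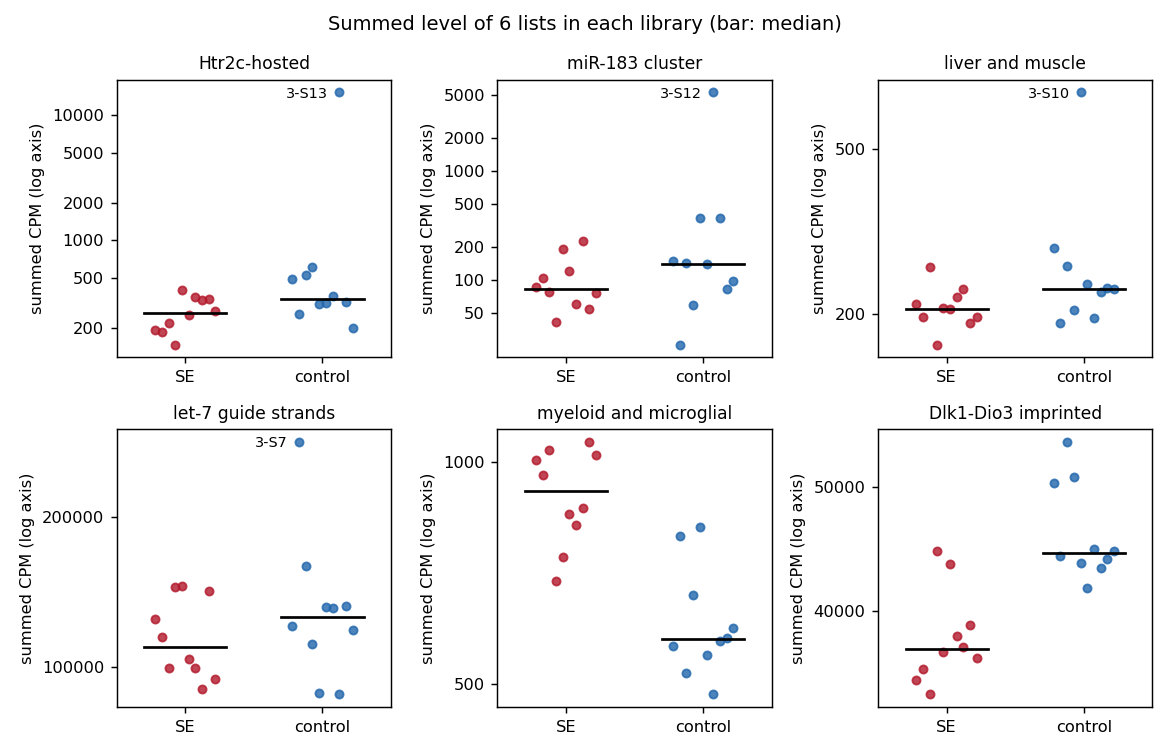
Summed CPM of 6 lists in each library (log axes, 1 point per library, SE in red on the left and control in blue on the right, bars for medians), with the library named where it is more than 1.5 times above the next. Control 3-S13 had 15217 CPM of the Htr2c-hosted miRNAs, control 3-S12 had 5255 CPM of the miR-183 cluster, and the sums of the Dlk1-Dio3 cluster lay lower in SE rats (median 37294 CPM) than in controls (median 44356 CPM).

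A pair of further lists holds miRNAs picked out for their direction in rats beside that in patients, 12 with the same and 7 with the opposite direction. They were drawn up on libraries that include the present ones, so they are not independent evidence. Of the same-direction list 10 were tested and 9 were higher (median 0.63). Of the 10, 1 was called by edgeR (miR-135a-5p) and 8 had an unadjusted p under 0.05 (1.36% and 16.3% over all 442). miR-484 had 94.4 ± 24.9 CPM in SE rats and 51.2 ± 26.1 CPM in controls (0.90, standard error 0.30, adjusted p = 0.123), where all SE rats exceeded the control median and 6 exceeded every control. miR-193a-5p stood at 0.63 (adjusted p = 0.225) and miR-140-5p at 0.32 (adjusted p = 0.361). miR-539-5p was the one lower, at 185 ± 23.8 CPM in SE rats and 270 ± 143 CPM in controls (-0.54, adjusted p = 0.191). Of the opposite-direction list miR-211-5p was called up and miR-187-3p down, miR-92b-5p stood at -0.88 (adjusted p = 0.286), miR-376a-3p at -0.67 and miR-301a-3p at -0.37. miR-22-3p stood at 0.14, and at -0.10 without SE library 3-S3.

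Further miRNAs among the 25 lowest p values, outside these lists, were not called. miR-365-3p had 126 ± 42.9 CPM in SE rats and 81.5 ± 22.7 CPM in controls (0.63, standard error 0.20, adjusted p = 0.0906). miR-504, a repressor of p53 in human cells, had 106 ± 44.0 CPM in SE rats and 166 ± 47.2 CPM in controls (-0.64, standard error 0.22, adjusted p = 0.126), and 6 SE rats lay below every control. The 10 most abundant miRNAs, from miR-9a-5p to let-7g-5p, had differences between -0.23 and 0.07, and the lowest unadjusted p among them was 0.128 (let-7f-5p).

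Whether the change after SE depended on the age at onset was tested in a fit of 39 libraries, by subtracting the change of rats with SE at postnatal day 12 (10 SE rats and 9 controls) from that of adult-onset rats. Age at onset and age at sampling cannot be told apart here. It passed for 4 of 442 miRNAs (0.905%), and 38 (8.6%) had an unadjusted p under 0.05. For miR-212-3p, SE library 3-S3 and control 3-S7 stood apart in their groups. Its change was 0.80 (standard error 0.17) with adult onset and -0.24 (0.17) with onset in infancy. The difference was 1.03 (standard error 0.24, adjusted p = 0.0139, and 0.0274 with DESeq2). Without control 3-S12 the difference was 1.01, though its adjusted p was 0.0783. The others were miR-96-5p (-7.37, standard error 1.66), miR-182 (-6.26, standard error 1.43) and miR-183-5p (-5.85). Without control 3-S12 and infancy-onset SE library 3-S22, a pair of libraries left out after the data were seen, they stood at -0.84, -0.46 and -0.72. miR-150-5p came next (0.71, standard error 0.20, adjusted p = 0.0711).

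The 6 miRNAs called in adult-onset rats did not pass this test. The differences between the ages were 1.01 (standard error 0.29, adjusted p = 0.0911) for miR-146a-5p, -0.93 (0.28, adjusted p = 0.105) for miR-7b, -0.82 (0.29, adjusted p = 0.197) for miR-187-3p, 0.85 (0.52, adjusted p = 0.804) for miR-155-5p, 0.14 (0.29, adjusted p = 0.976) for miR-135a-5p and -1.34 (0.92, adjusted p = 0.804) for miR-211-5p. In infancy-onset rats miR-146a-5p had 80.8 ± 37.1 CPM after SE and 74.5 ± 15.3 CPM in controls, and miR-7b 2736 ± 494 and 2672 ± 638 CPM (SD, n = 10 and 9). There miR-211-5p had 43.9 ± 117 and 5.90 ± 2.52 CPM, a log2 fold change of 2.91 (standard error 0.69).

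**Figure D5:**
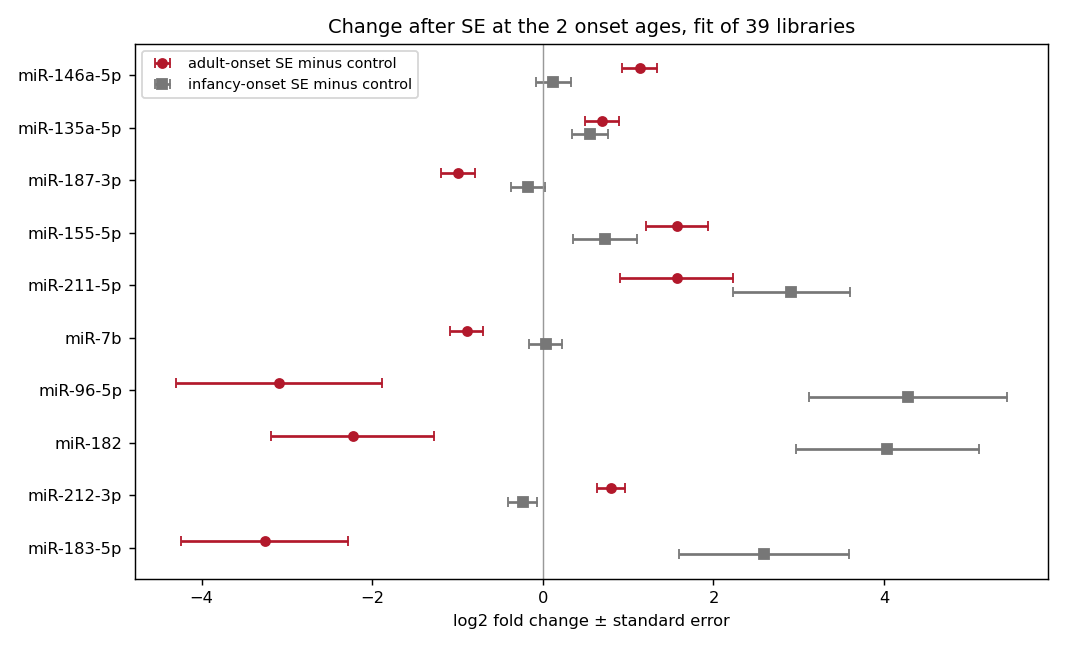
Log2 fold change after SE (x axis, ± standard error) in adult-onset rats (red circles) and infancy-onset rats (grey squares), from a fit of 39 libraries, for the 6 called miRNAs and the 4 whose change differed between the ages. For miR-146a-5p, miR-187-3p and miR-7b the infancy-onset values lie near 0 (0.12, -0.17 and 0.03), and for miR-135a-5p the 2 ages lie close together (0.69 and 0.55).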

How the data were processed

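Small RNA libraries (NEXTflex kit, NextSeq) were trimmed by the authors with the Kraken tools and Cutadapt and selected by size and quality. With up to 1 mismatch, seqBuster matched the reads to miRBase. The deposited raw counts per mature miRNA were used here. The deposited signal, the authors' normalized reads (each library's counts over a single size factor), entered only the limma-trend alternative, with a pseudocount of 1. For testing, the submitters' processing notes name DESeq2 1.16.1. No batch is given in the labels. Acute and latent tables were not used.

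Counts of miRNAs with more than 500 reads over 39 libraries were tested with edgeR 4.0.16 (glmQLFit, glmQLFTest, TMM) in R 4.3.3. Library totals cover all 653 miRNAs. The standard error is the log2 fold change divided by the square root of F. Arm ratios used limma 3.58.1 on log2((5p + 0.5)/(3p + 0.5)), and DESeq2 1.42.0, RLE scaling, library totals, limma voom with sample weights, no minimum, a mean of at least 10 CPM, a robust fit, the library total as covariate, all 39 libraries and leaving libraries out were alternatives. Scripts were tested on simulated data. Tables and figures used Python 3.11.15, pandas 2.3.3 and matplotlib 3.10.9.

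The miRNAs and lists were chosen with earlier results of these data known, the lists from general knowledge. Named were all calls, the 25 lowest p values, the 10 most abundant miRNAs, up to 4 members of each list with the lowest p, all tested miRNAs of the study's lists and the lowest p values of the interaction and arm tests, of which values are given mainly for those with an unadjusted p under 0.05. miR-146b-5p, miR-204-5p, miR-223-3p, miR-21-5p, miR-132-3p, miR-132-5p, miR-339-5p and miR-339-3p were added after their values were seen, as relatives, list members or arms. Lists overlap in miR-146a-5p, miR-155-5p, miR-135a-5p, miR-187-3p, miR-211-5p, miR-203a-3p, miR-142-3p, miR-142-5p, miR-539-5p and others.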

Additional observations from a re-analysis of the deposited data

Results flagged for a closer look

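In a group of 10 rats, a rat was set apart where its gap to the nearest other exceeded, as a share of the range of the group, Dixon's critical value. Of 120 groups examined (60 miRNAs, SE rats and controls), 30 (25%) had such a rat. Dixon's value gives about 1 in 20 for normally distributed levels, and CPM were used here untransformed. The 60 miRNAs were chosen largely for low p values, so the 25% has no set rate to compare with. Levels in a library are linked across miRNAs, so these are not 30 separate events.

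Among SE rats, 3-S3 was the highest for 8 miRNAs, with gaps of 0.573 for miR-155-5p, 0.631 for miR-212-3p, 0.729 for miR-132-5p, 0.527 for miR-206-3p, 0.487 for miR-15a-5p, 0.614 for miR-142-3p, 0.576 for miR-140-5p and 0.51 for miR-22-3p. 3-S5 was highest for miR-7a-5p (0.606) and miR-764-3p (0.515), and 3-S1 for miR-223-3p (0.503).

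Among controls, 3-S13 was highest for miR-1298 (0.974), miR-448-3p (0.965), miR-1912-3p (0.92) and miR-204-5p (0.926), and 3-S12 for miR-183-5p (0.954), miR-96-5p (0.887) and miR-182 (0.875). 3-S7 was highest for miR-212-3p (0.62), miR-17-5p (0.484), miR-20a-5p (0.564), miR-92b-5p (0.654) and miR-301a-3p (0.752). 3-S10 was highest for miR-382-5p (0.475), miR-142-3p (0.615), miR-376a-3p (0.531) and miR-22-3p (0.552), and lowest for miR-369-3p (0.481). 3-S8 was highest for miR-7a-5p (0.527) and lowest for miR-19a-3p (0.477).

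The change after SE differed between adult-onset and infancy-onset rats by an interaction term for miR-96-5p (-7.37), miR-182 (-6.26), miR-212-3p (1.03) and miR-183-5p (-5.85). Of these miR-212-3p passed also with DESeq2, but not without control 3-S12, where the term was 1.01 (adjusted p = 0.0783). The other terms were far smaller without control 3-S12 and infancy-onset SE library 3-S22.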

How the results depend on the processing

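No paired analysis was possible because SE rats and controls share no library number. The 6 calls became 13 with DESeq2, 19 with library totals only, 27 with limma voom with sample weights and 13 with a mean of at least 10 CPM, and all 6 passed in each of these. They became 4 without 3-S12 and 3-S13 and 4 to 19 without single libraries (12 without control 3-S6, 19 without 3-S7, 17 without 3-S10, 11 without 3-S11 or 3-S20). In every fit run miR-187-3p (-1.15 to -0.91 without single libraries), miR-146a-5p (0.99 to 1.17) and miR-155-5p (1.201 to 1.62) passed. The 44 miRNAs past the study's thresholds became 83 with no minimum (33 higher, 50 lower) and 38 to 52 without single libraries. Interaction calls were 4, with 1 by DESeq2, 1 without 3-S12 and 3-S22, and 0 to 7 without single libraries (0 without 3-S12, 1 without 3-S22). Seed family calls were 3, with 7 by DESeq2 and 0 to 17 without single libraries. Arm ratio calls were 0 throughout, also with a pseudocount of 5. Signs turned for miR-764-3p (0.071, limma voom with sample weights), miR-204-3p (0.013, limma voom with sample weights), miR-204-5p (0.011, without 3-S12 and 3-S13) and miR-22-3p (-0.10 without SE 3-S3, and up to 0.44 without single libraries). The cause was not tested. miR-155-5p and miR-211-5p rest on 2 to 345 reads per library, which limits their precision.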
